A study of Mus musculus with 4 samples.

Results

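The urea cycle enzymes are the 6 genes Cps1, Otc, Ass1, Asl, Arg1 and Nags, taken by name from the 54464 gene rows of a single-nucleus RNA-Seq (snRNA-Seq) matrix of mouse liver, in which all 6 were found. Nuclei of 6 mice were stained with a hashtag antibody per mouse, pooled, and sequenced as 2 RNA pools and 2 hashtag pools, so that a mouse is identified only by the hashtag that the deposited table gives for each nucleus. The 3 HNKO mice carried a floxed Nampt gene on both alleles and Cre recombinase driven by the promoter of albumin, a gene of hepatocytes. The 3 WT littermates carried the floxed Nampt gene without Cre, and all 6 mice were females on the C57BL6/BomTac background fed a purified control diet. Nampt produces NAD by salvage of nicotinamide, and the study compared the genotypes to find which liver cells respond to its loss.

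The urea cycle turns ammonia, which is toxic, into urea for excretion, and hepatocytes are the cells that run the whole cycle. Nags makes N-acetylglutamate, the obligate activator of Cps1, which joins ammonia and bicarbonate to carbamoyl phosphate in mitochondria, and Otc then forms citrulline from it. Ass1, Asl and Arg1 complete the cycle in the cytosol, through argininosuccinate and arginine to urea and ornithine. In the liver lobule the cycle is known for its periportal weighting, whereas the hepatocytes next to the central vein capture the remaining ammonia with glutamine synthetase (Glul).

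In GRCm38, Cps1 lies on chromosome 1 from 67123026 to 67231259 (plus strand), Otc on chromosome X from 10252305 to 10321024 (plus strand) and Ass1 on chromosome 2 from 31470207 to 31520672 (plus strand). Asl lies on chromosome 5 from 130011258 to 130029247 (minus strand), Arg1 on chromosome 10 from 24915221 to 24927484 (minus strand) and Nags on chromosome 11 from 102145513 to 102149477 (plus strand). All 6 are annotated as protein coding, and only Nags overlaps another gene, Gm11586 on the opposite strand. Whether reads were counted by strand is not given in the sources used here, so that Nags reads cannot be told apart from reads of Gm11586. The values are unique molecular identifiers (UMIs) over exons and introns of whole genes, and 78.8% of all UMIs were unspliced.

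Promoter sequences (RefSeq, GRCm38.p6) were at hand for 3 members, Ass1, Nags and Otc. The 250 bases before the start site are shown for Otc and Ass1, since the levels of these genes did not run together across the mice described below. Capitals mark matches of any of 6 motifs searched on both strands, which were the TATA box TATAAA, the GC box GGGCGG, the CCAAT box, the cAMP response element TGACGTCA, the C/EBP motif TTGCNNAA and the HNF4-type motif AAAGTNCA.
Otc, chrX:10252055-10252304, plus strand: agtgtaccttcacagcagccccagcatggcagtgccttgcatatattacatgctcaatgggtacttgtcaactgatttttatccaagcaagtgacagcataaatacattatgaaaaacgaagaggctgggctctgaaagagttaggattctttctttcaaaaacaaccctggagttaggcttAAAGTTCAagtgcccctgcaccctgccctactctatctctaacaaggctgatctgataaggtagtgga
Ass1, chr2:31470020-31470269, plus strand: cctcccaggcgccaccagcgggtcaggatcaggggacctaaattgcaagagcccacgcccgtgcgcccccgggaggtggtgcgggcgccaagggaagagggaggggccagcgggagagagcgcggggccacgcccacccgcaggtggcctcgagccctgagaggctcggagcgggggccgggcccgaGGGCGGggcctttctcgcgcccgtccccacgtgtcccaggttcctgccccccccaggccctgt
The Otc window held 43.6% G and C with 1 CG pair, and its match was an HNF4-type motif that begins at -68 from the start site, which 3.53% of the 32851 promoters of the same length hold. The Ass1 window held 75.6% G and C with 23 CG pairs, and its match was a GC box that begins at -63, found in 32.7% of these promoters. The Nags window held 55.6% G and C and a pair of GC boxes. The median over all promoters was 52.4% G and C. The RefSeq start of Ass1 lies inside the gene as annotated above, so that this window overlaps its first bases. A match of letters is a description and not a binding site.

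The table held 5193 nuclei with no cell barcode shared between them, 629 to 778 in the WT mice and 950 to 1063 in the HNKO mice, of 4250 sorted per mouse. The UMIs of a WT mouse added up to 3766532 to 4699686, and those of an HNKO mouse to 6400163 to 7763269. Mice are numbered by hashtag name only. The 21 deposited clusters were grouped into 6 types by name, and in each type all markers of that type were higher than in the rest. For the hepatocytes this was 8 of 8 markers, with a summed level of 8645 CPM (UMIs of the gene per 1000000 UMIs of the same nuclei) against 2270 CPM in the other nuclei. Nampt in hepatocytes was at 84.8, 105 and 96.9 CPM in WT mice and at 84.1, 148 and 90.8 CPM in HNKO mice, so that this check of the genotype labels did not separate the groups. The matrix counts the whole gene, and the recombined part was not measured on its own.

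HNKO mouse 3 stood apart from the other mice. Its own hashtag held 51.3% of the hashtag counts of its hepatocyte nuclei, against 68.2% to 82.2% in the other 5 mice, and its 8 hepatocyte markers summed to 5853 CPM, against 7765 to 10593 CPM. Of these markers 7 were below the mean of the other mice. The unspliced share of its hepatocyte UMIs was 78.6%, within the range of 77.4% to 80.6% of the other mice. Results that rest on this mouse are therefore given with and without it, and the part of hashtag purity in them was not tested except where a value is given.

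WT mice 1, 2 and 3 gave 562, 713 and 657 hepatocyte nuclei and HNKO mice 1, 2 and 3 gave 812, 819 and 847. Cps1, the entry enzyme of the cycle, was at 12856, 14118 and 17648 CPM in the WT mice and at 17742, 15084 and 4274 CPM in the HNKO mice. The group means were 14874 ± 2484 CPM (SD, n = 3) in WT and 12367 ± 7133 CPM (SD, n = 3) in HNKO mice. HNKO mice 1 and 2 lay within the WT range or just above it, and HNKO mouse 3 lay far below every other mouse, at 27.6% of the mean of the other 5.

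Otc, the second mitochondrial enzyme, was at 408, 342 and 269 CPM in the WT mice and at 217, 288 and 387 CPM in the HNKO mice. The mean of the WT mice was 340 ± 69.2 CPM and that of the HNKO mice 297 ± 85.5 CPM (SD, n = 3). Here HNKO mouse 3 was the highest HNKO animal and stood at 127% of the mean of the other 5 mice, so that it was not low for every member.

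Ass1, which joins citrulline to aspartate, was at 1043, 1128 and 2480 CPM in the WT mice and at 2487, 1460 and 529 CPM in the HNKO mice. WT mouse 3 and HNKO mouse 1 were nearly level and far above the rest, and HNKO mouse 3 was again the lowest, with a mean of 1550 ± 807 CPM for WT and of 1492 ± 979 CPM for HNKO (SD, n = 3 each). Asl, which splits argininosuccinate, was at 739, 655 and 865 CPM in the WT mice and at 595, 649 and 167 CPM in the HNKO mice. The 3 HNKO values lay below the 3 WT values, although HNKO mouse 2 and WT mouse 2 were almost level. Of all 11810 genes tested, 2.23% had HNKO levels wholly below WT in this way and 12.5% did not overlap in either direction.

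Arg1, the arginase that releases urea, was at 1239, 1313 and 1442 CPM in the WT mice and at 1049, 1410 and 719 CPM in the HNKO mice, which is 1331 ± 102 and 1059 ± 345 CPM (SD, n = 3 each). Nags rested on few molecules, namely 6, 16 and 16 UMIs in the WT mice and 14, 33 and 34 UMIs in the HNKO mice. These counts correspond to 1.70, 4.05 and 3.60 CPM in WT and 2.11, 5.51 and 6.19 CPM in HNKO mice, with overlapping groups. HNKO mouse 3 was the highest mouse for Nags.

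Per kilobase of annotated gene, a scale used here because intron reads rise with gene length, the mean WT level was 137 ± 22.9 CPM for Cps1 and 109 ± 8.35 CPM for Arg1 (SD, n = 3). On the same scale it was 41.9 ± 5.89 CPM for Asl, 30.7 ± 16.0 CPM for Ass1, 4.94 ± 1.01 CPM for Otc and 0.786 ± 0.314 CPM for Nags. Cps1 lay above Arg1 in each WT mouse by about the size of the spread of Cps1, Asl and Ass1 overlapped, and Otc and Nags lay below the other 4 genes in every mouse.

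**Figure D1:**
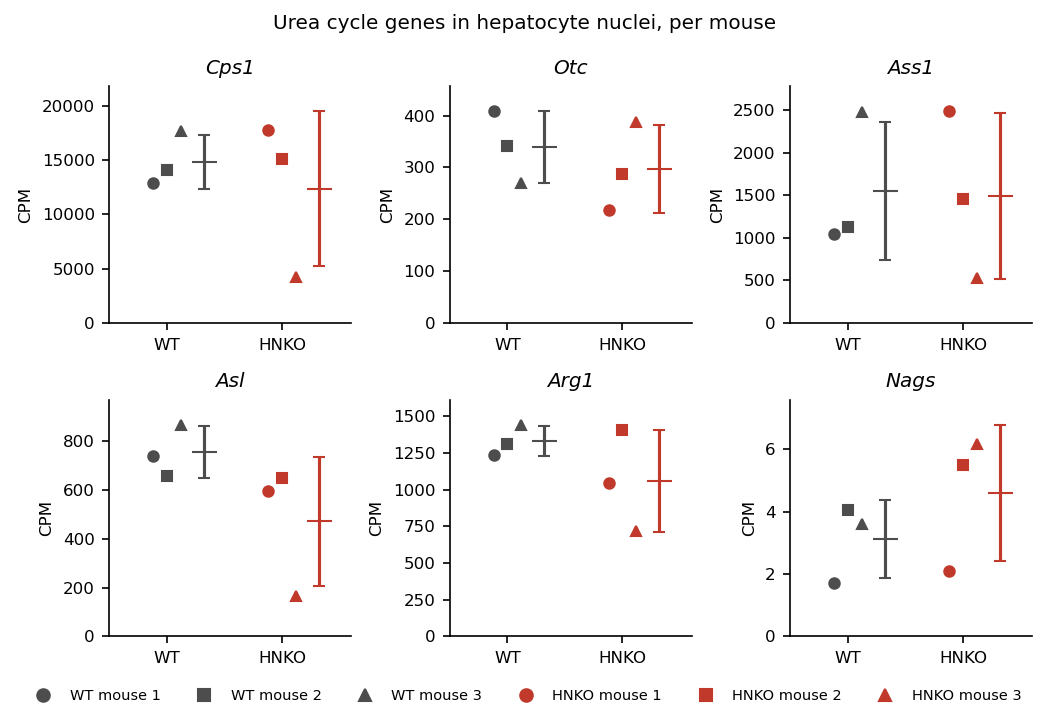
Level of each urea cycle gene (CPM, linear axis from 0) in the hepatocyte nuclei of 3 WT (grey) and 3 HNKO (red) mice, 1 symbol per mouse, with the mean and SD of each genotype beside them. HNKO mouse 3 (red triangle) is the lowest mouse for Cps1, Ass1, Asl and Arg1 and the highest HNKO mouse for Otc and Nags.

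To determine whether the genotypes differed, UMIs were summed over the hepatocyte nuclei of each mouse and tested with edgeR's quasi-likelihood test with Benjamini-Hochberg adjustment. No urea cycle gene passed the threshold of 0.05, and the background was 0 of 11810 genes (0%). At an unadjusted p under 0.05 there were 698 genes, and DESeq2 called 21 genes, none of them a member. The log2 fold change from WT to HNKO was -0.33 (SE 0.63) for Cps1, -0.39 (SE 0.22) for Otc and -0.11 (SE 0.64) for Ass1. For Asl it was -0.75 (SE 0.53), for Arg1 -0.45 (SE 0.35) and for Nags 0.34 (SE 0.44), with adjusted p of 0.820 to 0.976 in edgeR over the 6 members. With all 6 mice their median was -0.36, beside 0.02 over all genes tested. Without HNKO mouse 3 Cps1, Ass1 and Nags were positive and Otc, Asl and Arg1 negative, and a median was not taken. None of these differences was called at this sample number.

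Leaving out HNKO mouse 3 changed the sign of Cps1 to 0.13 (SE 0.27) and of Ass1 to 0.35 (SE 0.45), and moved Asl to -0.30 (SE 0.20) and Arg1 to -0.14 (SE 0.20). Otc was then at -0.45 (SE 0.23) and Nags at 0.22 (SE 0.49). Ass1 also changed sign, to 0.41, without WT mouse 3. Restricting the sums to nuclei whose own hashtag held at least 50% of their hashtag counts kept 364 of the 847 hepatocyte nuclei of HNKO mouse 3 and left its levels at 4239 CPM for Cps1, 385 CPM for Otc, 524 CPM for Ass1, 164 CPM for Asl and 694 CPM for Arg1. With all its hepatocyte nuclei these levels were 4274, 387, 529, 167 and 719 CPM. The part of hashtag purity in them was not tested beyond this cut. TMM scaling multiplied the levels of HNKO mouse 3 by 0.78 and those of the other mice by 0.99 to 1.09. Scaling by library size alone shifted the median of all genes by 0.18 (log2) towards HNKO and gave -0.27 for Cps1, -0.19 for Otc, -0.05 for Ass1, -0.68 for Asl, -0.33 for Arg1 and 0.54 for Nags. All of these kept their sign.

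**Figure D2:**
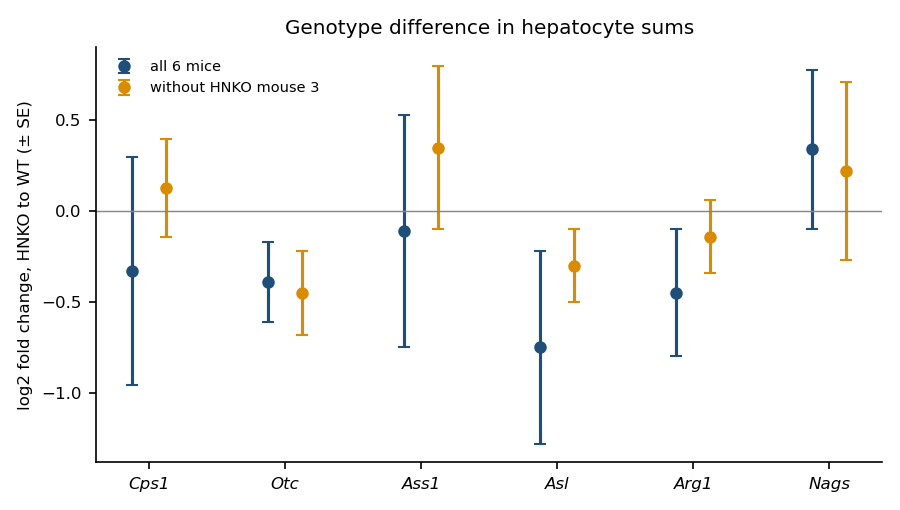
Log2 fold change from WT to HNKO mice (points) with its SE (bars) from edgeR for each urea cycle gene, with all 6 mice (blue) and without HNKO mouse 3 (orange). With that mouse left out Cps1 moved from -0.33 to 0.13 and Ass1 from -0.11 to 0.35, while Otc stayed between -0.39 and -0.45.

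Among 7282 genes of at least 10 CPM, the median gene of HNKO mouse 3 was at 128% of the mean of the other 5 mice. A lower ratio than that of Cps1 was held by 1.46% of these genes, than that of Ass1 by 1.77%, than that of Asl by 0.975% and than that of Arg1 by 5.44%. For Otc it was 48.5%, so that Otc followed the bulk of genes in this mouse while the other 4 lay in the low tail.

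The genes around the cycle were examined in 4 lists. Of the carriers and partners, which include the ornithine carrier Slc25a15, the aspartate carrier Slc25a13 (citrin) and the mitochondrial carbonic anhydrase Car5a, 6 of 8 were tested and none was called between genotypes, with a median log2 fold change of -0.16. Slc25a2 and Arg2 did not pass the count filter. None of 10 tested of 11 ammonia and glutamine genes (median -0.06), of 15 tested amino acid breakdown genes (median -0.32) or of 8 tested regulators (median -0.19) was called. In the amino acid breakdown list 2 of 15 genes had a positive fold change, against 6184 of 11810 over all genes. These list values include HNKO mouse 3 and were not taken without it. Hal, the histidase that releases ammonia from histidine, had the lowest unadjusted p of the lists at 0.0095, with a log2 fold change of -0.90 (SE 0.26) and an adjusted p of 0.820 in edgeR.

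The levels were next described across cell types, as a description with no test since the clusters were built on expression in the same nuclei. In every type with at least 10 nuclei in a mouse, Cps1 was detected. Endothelial sums held 2509, 3158 and 2012 CPM in the WT mice and 5738, 4228 and 1941 CPM in the HNKO mice, a median of 25.2% of the hepatocyte level of the same mouse. The median was 32.9% in CD45+ cells (5 mice), 6.67% in stellate cells (6 mice), 5.80% in Kupffer cells (3 mice) and 4.00% in cholangiocytes (3 mice). The 8 hepatocyte markers, which these cells should lack, were at a median of 29.9%, 48.0%, 17.2%, 18.3% and 20.8% of their hepatocyte level in the same types. For Cps1 and for the markers alike, the medians of CD45+ and endothelial nuclei were above those of the other 3 types, and in each type the median of Cps1 was below that of the markers.

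Arg1 was at a median of 23.2% of its hepatocyte level in endothelial cells, 40.8% in CD45+ cells, 13.3% in stellate cells, 5.55% in Kupffer cells and 9.89% in cholangiocytes. Arg1 is also known as a product of some activated macrophages, but in Kupffer nuclei its level rested on 16 UMIs in the 3 mice. Otc was at a median of 22.6% in endothelial cells, 34.1% in CD45+ cells and 17.5% in stellate cells, from 68, 76 and 42 UMIs. Ass1 and Asl were at 26.1% and 23.2% in endothelial cells and at 3.38% and 3.23% in cholangiocytes. None of these 4 genes exceeded its hepatocyte level of the same mouse in a type with 10 nuclei.

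The ratio of Cps1 to Otc was compared between hepatocytes and all other nuclei of the same mouse. In HNKO mouse 3 there were 11.0 Cps1 UMIs per Otc UMI in hepatocytes and 11.7 in the other nuclei, and in HNKO mouse 1 there were 81.7 and 71.1. HNKO mouse 2 had 52.4 and 50.2, and WT mice 1, 2 and 3 had 31.5 and 25.0, 41.3 and 58.2, and 65.5 and 28.0. The Cps1 to Otc ratios were close in the 3 HNKO mice and less so in the WT mice, whose values outside hepatocytes rested on 12 to 21 Otc UMIs. Cps1 UMIs per Ass1 UMI, in hepatocytes and in the other nuclei, were 7.13 and 9.08 in HNKO mouse 1. They were 10.3 and 9.02 in HNKO mouse 2 and 8.07 and 9.00 in HNKO mouse 3. In WT mice 1, 2 and 3 they were 12.3 and 9.26, 12.5 and 12.2, and 7.11 and 5.56. The part of free hepatocyte RNA in these levels was not tested.

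Nags was found outside hepatocytes as 1 endothelial UMI and 3 UMIs in CD45+ nuclei in all mice, and at 0 in stellate, Kupffer and cholangiocyte nuclei. In all nuclei other than hepatocytes together, a count of 0 allowed up to 12.4 CPM in WT mouse 1, 11.9 CPM in WT mouse 3 and 2.66 CPM in HNKO mouse 1 (3 counts of the total, counting error only), above the hepatocyte level of the same mouse. In HNKO mouse 3 it allowed up to 3.32 CPM, below its hepatocyte level of 6.19 CPM. A difference of Nags between types was thus within reach of the depth in that mouse alone among the 4 mice with no UMI outside hepatocytes.

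At least 1 Cps1 UMI was found in 99.1% to 99.8% of hepatocyte nuclei per mouse, and in 92.0% to 98.9% after each nucleus was thinned to 1300 UMIs. In endothelial nuclei these shares were 86.2% to 92.9% and 53.8% to 76.9%, with median depths of 2443 to 3260 UMIs against 3572 to 5786 UMIs in hepatocytes. For Otc the thinned share was 20.7% to 33.9% in hepatocytes and 0% to 17.2% in endothelial nuclei. Arg1 was seen in 49.0% to 72.8% of thinned hepatocyte nuclei and in 11.5% to 27.6% of thinned endothelial nuclei, and Ass1 in 45.3% to 91.2% and 16.7% to 34.5%. For Asl the thinned shares were 21.3% to 65.1% and 3.45% to 11.5%. The thinned ranges of hepatocytes and endothelial nuclei did not overlap for any of these genes. The share of all genes of which this holds was not taken.

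**Figure D3:**
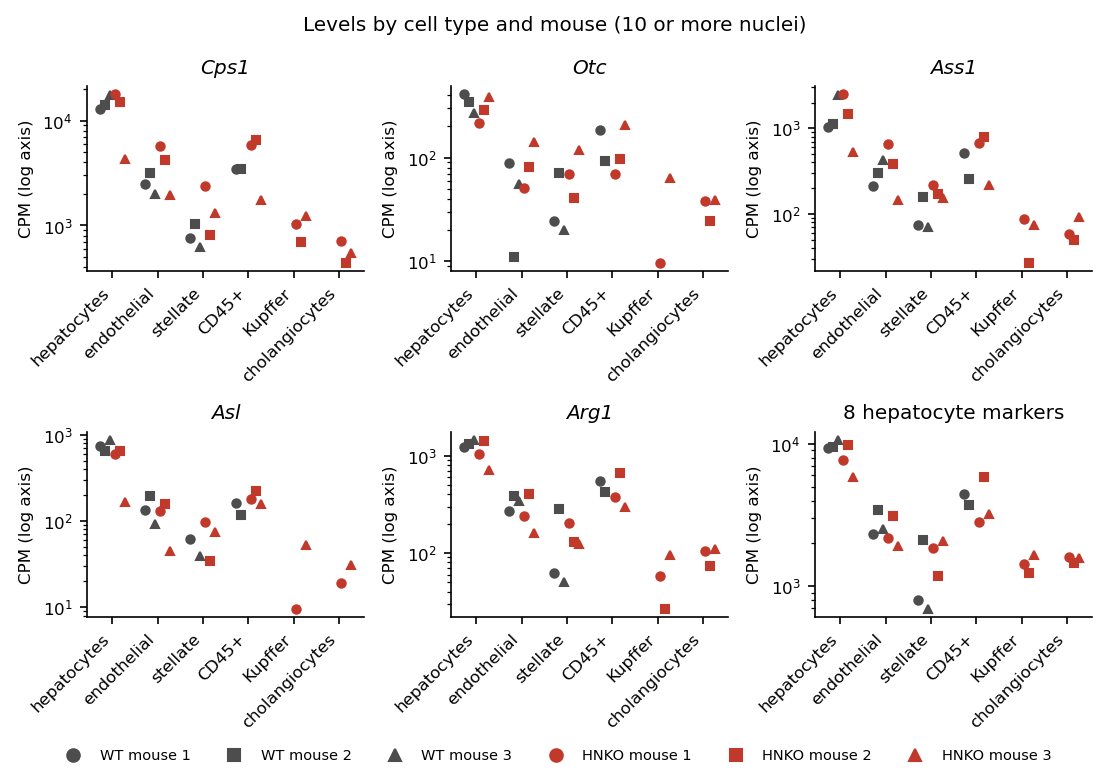
Level of 5 urea cycle genes and of the 8 hepatocyte markers summed (CPM, log axis) in each cell type, 1 symbol per mouse with at least 10 nuclei of the type (WT grey, HNKO red). Sums at 0 are not drawn. Hepatocytes are the highest type for each gene within a mouse, and by their medians endothelial and CD45+ nuclei lie above stellate, Kupffer and cholangiocyte nuclei for Cps1, as they do for the markers.

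To test whether the genotype difference was the same in hepatocytes and endothelial cells, the interaction of cell type and genotype was fitted in edgeR with mouse as a block. Of 11517 genes 13 (0.113%) passed, and Cps1 was the only member among them. The log2 fold change from WT to HNKO in hepatocytes minus that in endothelial cells was -1.25 for Cps1 (SE 0.28, adjusted p = 0.00813 in edgeR). Endothelial Cps1 stood at 19.5%, 22.4% and 11.4% of the hepatocyte level of the same WT mouse. For the HNKO mice it stood at 32.3%, 28.0% and 45.4%, each above the WT values, as was so for 5.74% of 11215 genes on the same ratio. The hepatocyte markers in the same endothelial sums were at 25.1%, 36.4% and 23.9% in WT and at 28.0%, 31.7% and 32.6% in HNKO mice, which overlapped. Otc was at -1.17 (SE 0.47), Ass1 at -0.58 (SE 0.32), Asl at -0.56 (SE 0.39) and Arg1 at -0.21 (SE 0.32), with adjusted p of 0.722 to 0.988 in edgeR.

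The call of Cps1 was not stable. It was lost with library size alone (adjusted p = 0.108 in edgeR) and with DESeq2 (adjusted p = 1.00), and without WT mouse 1 (0.0882), WT mouse 3 (0.444), HNKO mouse 1 (0.0639) or HNKO mouse 3 (0.338). It was also lost without the mouse block (0.916) and without the 5% of nuclei with most UMIs (0.588), over a range of 0.000356 to 1.00 for all alternatives. Endothelial sums held 89294 to 317702 UMIs and 218 to 1823 Cps1 UMIs. The direction was the same under each of the 12 alternatives, with a range of -1.48 to -0.98 when a mouse was left out.

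The hepatocytes were then divided by their place in the lobule. The deposited table has 13 hepatocyte clusters, of which 3 are called Central, and 22 combinations of cluster and mouse held at least 20 nuclei. In all 6 Central sums Cps1, Otc, Ass1, Asl and Arg1 were below the level of the non-central hepatocytes of the same mouse. Arg1 was the lowest of the 5 in these terms, at 7.52% to 24.3% of the non-central level with a median of 13.9%. Asl was at 24.9% to 45.1%, Cps1 at 26.9% to 60.3%, Ass1 at 20.8% to 85.7% and Otc at 55.0% to 77.6%. These are descriptions, since the clusters were made from expression in the same nuclei. Whether these genes entered the clustering is not given in the sources used here. The share of all genes below the non-central level in all 6 Central sums was not taken.

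Taking all Central nuclei of a mouse together, Arg1 was at 100, 182 and 369 CPM in the WT mice and at 209, 194 and 111 CPM in the HNKO mice. In the other hepatocytes of the same mice it was at 1330, 1361 and 1516 CPM in WT and at 1183, 1499 and 771 CPM in HNKO mice. Every Central value was below every non-central one. Cps1 in Central nuclei was at 3651, 4355 and 10915 CPM in the WT mice and at 10441, 4499 and 1799 CPM in the HNKO mice. It was at 13589, 14529 and 18113 CPM in the other hepatocytes of the WT mice and at 18912, 15858 and 4485 CPM in those of the HNKO mice. HNKO mouse 3 was low on both sides, and the mice with the highest Central levels, WT mouse 3 and HNKO mouse 1, were also the highest outside.

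Nags was not found in the Central nuclei of the WT mice and HNKO mouse 1, and was found as 4 UMIs in HNKO mouse 2 and 1 UMI in HNKO mouse 3. Otc in Central nuclei was at 254, 194 and 212 CPM in the WT mice and at 128, 193 and 261 CPM in the HNKO mice, against 420, 348 and 273 CPM and 232, 295 and 398 CPM outside. Ass1 in HNKO mouse 1 stood out by its small difference, at 2187 CPM in Central and 2535 CPM in other nuclei. Asl was at 219, 201 and 289 CPM in Central nuclei of the WT mice and at 291, 181 and 78.6 CPM in those of the HNKO mice. The median depth of Central nuclei was 2574 to 5338 UMIs, against 3560 to 5819 UMIs for the other hepatocytes.

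**Figure D4:**
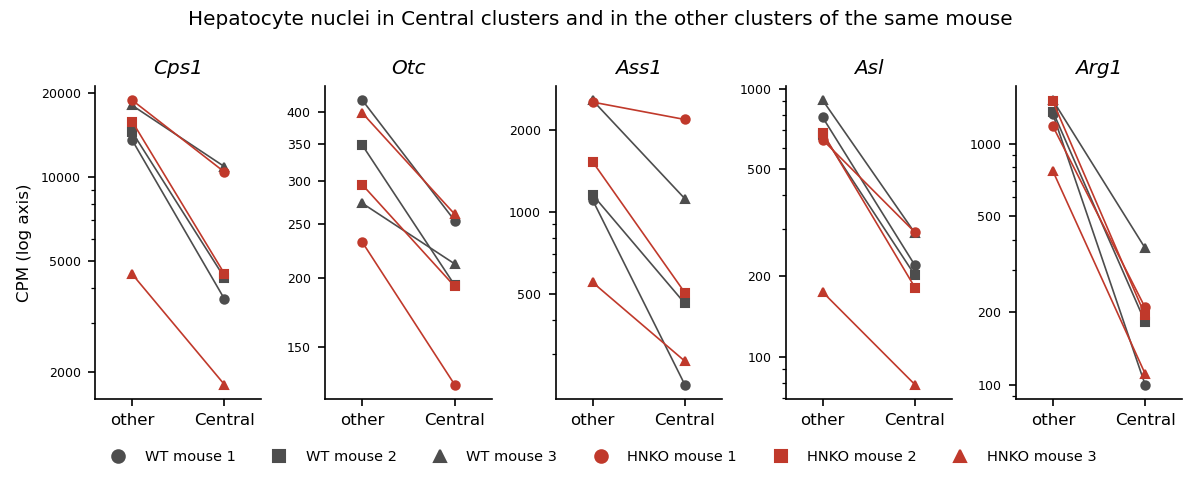
Level of 5 urea cycle genes (CPM, log axis) in the nuclei of the Central clusters and in the other hepatocyte clusters, with a line joining both values of a mouse (WT grey, HNKO red). Each line falls from other to Central, most steeply for Arg1 (to 7.52% to 24.3%) and least for Ass1 in HNKO mouse 1 (to 86.3%).

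Several clusters outside the centre were made up almost wholly of 1 mouse. The cluster named HNKO 1 had 99.1% of its nuclei from HNKO mouse 1, and the clusters named HNKO 2 and HNKO 3 had 97.0% and 99.0% from HNKO mouse 3. Cps1 was at 19222 CPM in the first and at 3912 and 5580 CPM in the others, which repeats the difference between the mice. Among the 16 non-central sums, members were at 53.8% to 124% of the non-central level of their own mouse for Cps1, Otc, Ass1, Asl and Arg1. The cluster called Hepatocytes 2 held at least 20 nuclei in 5 mice. In these it was at 65.2% to 76.7% for Cps1 and at 80.8% to 95.1% for Arg1, with median depths of 2213 to 3304 UMIs.

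Across the 22 sums of cluster and mouse, the genes most like a member were taken by Pearson's r of log2(CPM + 1) over 7277 other genes of at least 10 CPM. Cps1 was most like Asl (r = 0.92), Txndc11 (r = 0.91) and Slc7a2 (r = 0.90), of which Slc7a2 encodes a transporter of arginine and other cationic amino acids. Asl was most like Cps1 (r = 0.92), Slc7a2 (r = 0.91) and Txndc11 (r = 0.91). Ass1 was most like Rhobtb1 (r = 0.92), Man2a1 (r = 0.90) and Cps1 (r = 0.89). Arg1 was most like Acly (r = 0.94), Jazf1 (r = 0.92) and A930011G23Rik (r = 0.91). Otc was most like the row ENSMUSG00000090623, whose symbol in the reference table is Cfhr3 (r = 0.84), Pcmtd1 (r = 0.79) and Ireb2 (r = 0.78). The sums share mice and 3 of them come from HNKO mouse 3, so that the r values describe these sums only.

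Between members, r was 0.92 for Cps1 and Asl, 0.89 for Cps1 and Ass1, 0.85 for Asl and Arg1, and 0.81 for Cps1 and Arg1 over the same sums. Otc had an r of 0.11 with Cps1, -0.12 with Ass1, 0.24 with Asl and 0.46 with Arg1. These values include the differences between mice, since they were not taken within a mouse. Nags had too few UMIs for such a description.

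To place the members along the lobule without the clusters, the hepatocyte nuclei of each mouse were ranked by the ratio of 16 pericentral to 14 periportal genes and cut into 3 equal parts. No member is in these lists, whose genes were left out of the calls. Nuclei with equal scores at a cut were divided at random, and these numbered 66 at the lower and 91 at the upper cut in HNKO mouse 3 and 56 at the upper cut in HNKO mouse 1, against 1 or 2 at the upper cut and 8 to 26 at the lower cut in the other 4 mice. The part of these ties in the differences between genotypes was not tested. The Central clusters made up 19.4% to 36.3% of the pericentral part and 0% of the periportal part. In WT mice Cps1 was at 11739, 13431 and 16052 CPM in the periportal part, 13662, 14163 and 17990 CPM in the middle and 13053, 14723 and 18768 CPM in the pericentral part. In HNKO mice it was at 19212, 14482 and 4424 CPM, 18558, 16331 and 4309 CPM and 15530, 14441 and 4088 CPM. The pericentral level was at 110% to 117% of the periportal one among WT mice and at 80.8% to 99.7% among HNKO mice. The test of this ratio between genotypes, given below, did not call Cps1 in the main fit. The share of all genes without overlap on this ratio was not taken for these parts. On the same ratio Otc, Ass1, Asl and Arg1 overlapped between genotypes. Nags did not overlap, with HNKO above WT mice, but rested on 1 to 13 UMIs per part.

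Arg1 was at 1356, 1563 and 1561 CPM in the periportal and at 956, 1076 and 1166 CPM in the pericentral part of the WT mice. In the HNKO mice it was at 1294, 1617 and 972 CPM and at 704, 1134 and 483 CPM. It was lower in the pericentral part of every mouse, at 49.7% to 74.7% of the periportal level. Asl was at 824, 754 and 982 CPM in the periportal and at 589, 525 and 776 CPM in the pericentral part of the WT mice, and at 710, 740 and 203 CPM and 468, 519 and 125 CPM in the HNKO mice. Ass1 was likewise lower in the pericentral part of every mouse, at 63.2% to 95.6% of the periportal level, and Otc was lower in 5 of 6 mice, at 59.9% to 105%.

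In edgeR's quasi-likelihood test with mouse as a block, 1293 of 8675 genes (14.9%) passed between the outer parts, 771 higher and 522 lower (6.02%) in the pericentral part. With library size alone 581 genes were higher and 881 lower (10.2%), so that the split of directions over all genes depended on the scaling. Of the 5 members tested 3 fell towards the central vein. Arg1 fell by 0.56 on the log2 scale (SE 0.08, adjusted p = 2.6e-05), Asl by 0.44 (SE 0.06, adjusted p = 4.4e-05) and Ass1 fell by 0.26 (SE 0.07, adjusted p = 0.015), all in 6 of 6 mice. With library size alone the values were -0.64, -0.52 and -0.34, and all 3 were again called. Cps1 was at 0.09 (SE 0.06, adjusted p = 0.389 in edgeR) and Otc at -0.15 (SE 0.08, adjusted p = 0.268 in edgeR). Nags, with 1 to 13 UMIs per part, did not pass the count filter. The median over the 5 members was -0.26, beside -0.01 over all genes tested.

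Without the filter on low counts Cps1 was called as higher (0.11, adjusted p = 0.0447 in edgeR). The call of Ass1 was lost without WT mouse 1 (adjusted p = 0.0708 in edgeR), without HNKO mouse 2 (0.0583) and with the score taken on all UMIs of a nucleus (0.113), at log2 differences of -0.20, -0.25 and -0.20. Asl and Arg1 were called without each mouse in turn, and no member was called in a fit without the mouse block.

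Since the Central clusters were far lower than the pericentral part as a whole, the outermost of 10 equal parts on each side were compared as well, a cut chosen after the values were seen. Arg1 was then at 1275, 1566 and 1502 CPM on the periportal side and at 570, 879 and 944 CPM on the pericentral side of the WT mice. In the HNKO mice it was at 1361, 1713 and 1023 CPM and at 284, 712 and 205 CPM. Its log2 difference was -1.31 (SE 0.18, adjusted p = 1.8e-05 in edgeR), larger than between the broader parts. Asl was at -0.96 (SE 0.13), Ass1 at -0.67 (SE 0.11) and Otc at -0.46 (SE 0.13), which all passed at adjusted p of 1.7e-05, 0.000159 and 0.0185 in edgeR. Cps1 was at -0.34 (SE 0.13, adjusted p = 0.0957 in edgeR). Of 5193 genes tested in this comparison 7.88% were lower on the pericentral side at the same threshold.

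In this outermost cut Cps1 was at 95.7%, 96.9% and 106% of the periportal level in the WT mice and at 46.6%, 74.1% and 52.2% in the HNKO mice. Arg1 was at 44.7%, 56.2% and 62.8% in WT and at 20.9%, 41.5% and 20.1% in HNKO mice. Asl was at 73.2%, 47.4% and 62.7% in WT and at 40.1%, 40.1% and 34.7% in HNKO mice. In these 3 of the 5 members all HNKO values lay below all WT values, as they did in 5.11% of 5165 genes on the same ratio, whereas Ass1 and Otc overlapped between genotypes. The share of Central nuclei in these outermost parts was not measured, and its part in these values was not tested. The test of the genotype difference is given next.

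**Figure D5:**
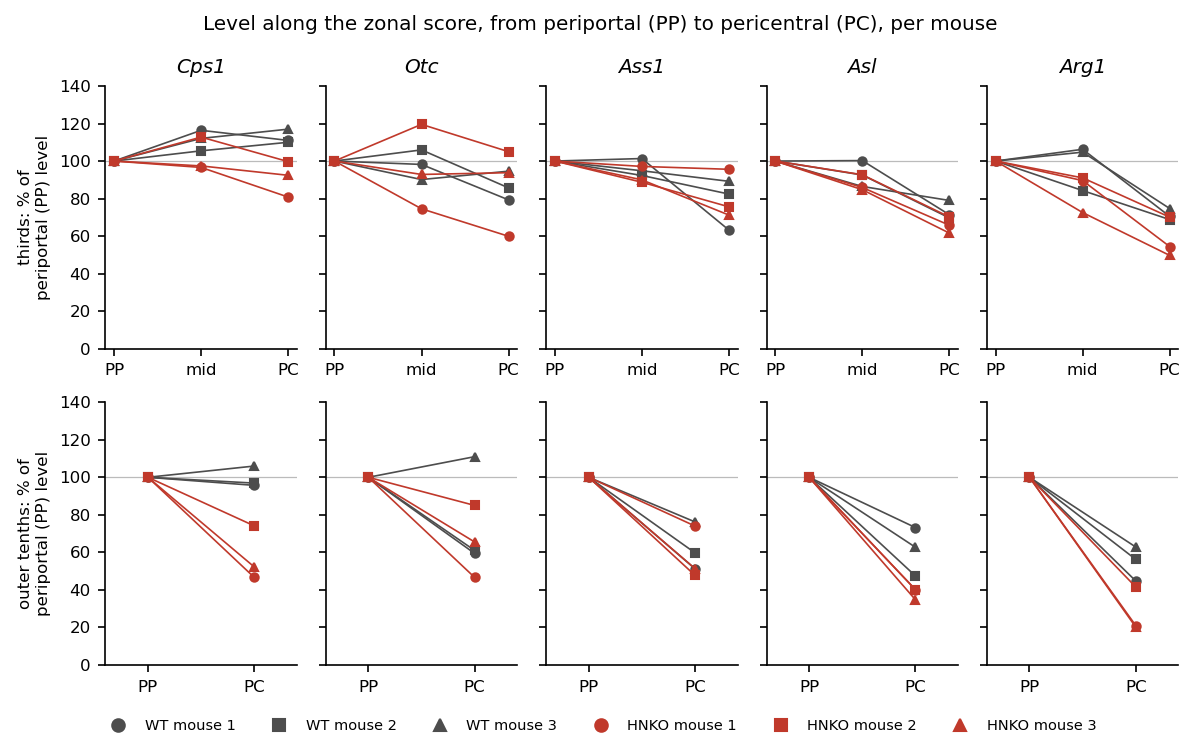
Level of 5 urea cycle genes in each mouse (WT grey, HNKO red) as a percent of its periportal level, over 3 equal parts of the hepatocytes along the zonal score (upper row, PP periportal, mid middle, PC pericentral) and between the outermost of 10 equal parts (lower row). Arg1 and Asl fall in every mouse in both rows, and Cps1 falls in the lower row in the 3 HNKO mice to 46.6% to 74.1% and stays at 95.7% to 106% in the 3 WT mice.

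To determine whether the zonal difference changed with genotype, the interaction of part and genotype was tested in edgeR with mouse as a block. No member passed, and of 9699 genes 1 (0.0103%) did, Gna14, which is named here after its value was seen. Over the 3 parts the interaction was -0.35 (SE 0.10) for Cps1, with an adjusted p of 0.764 in edgeR, and -0.34 (SE 0.13) for Arg1, with an adjusted p of 0.863. Asl was at -0.18 (SE 0.12), Otc at -0.07 (SE 0.17), Ass1 at 0.02 (SE 0.14) and Nags at 0.54 (SE 0.68). Between the outermost of 10 parts the interaction was -0.66 (SE 0.22) for Asl (adjusted p = 0.945 in edgeR), -0.84 (SE 0.17) for Cps1 and -1.07 (SE 0.26) for Arg1, the last 2 with adjusted p of 0.133 and 0.317 in edgeR. A genotype difference in the zonation of Cps1, Arg1 or Asl was thus not called in either cut. It was called for Cps1 only when no count filter was used (-0.36, adjusted p = 0.00123 in edgeR), where 24 genes passed.

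The same contrast was read for the genes around the cycle, with the list genes of the zonal score left out. Of 6 carriers and partners tested, 2 were higher in the pericentral part and none lower (median 0.17), namely Slc25a13 at 0.37 (SE 0.05, adjusted p = 3.7e-05 in edgeR) and Car5a at 0.33 (SE 0.11, adjusted p = 0.0454 in edgeR). Car5a, which supplies bicarbonate to Cps1, was not called with library size alone (adjusted p = 0.135 in edgeR). Of 6 ammonia and glutamine genes tested, 1 was higher, the glutamate dehydrogenase Glud1 at 0.58 (SE 0.06, adjusted p = 1.6e-06 in edgeR), and none was lower. The other 5 genes of this list are part of the zonal score.

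Of 13 amino acid breakdown genes tested 4 were lower and 4 higher in the pericentral part (median 0.09). The lower ones were the glycine decarboxylase Gldc at -2.20 (SE 0.09), the histidine pathway genes Uroc1 at -0.92 (SE 0.08) and Ftcd at -0.53 (SE 0.07), and the transsulfuration gene Cbs at -0.55 (SE 0.10). Among the higher ones were the proline oxidase Prodh at 0.92 (SE 0.09) and the tyrosine breakdown genes Hpd at 0.42 (SE 0.09) and Fah at 0.33 (SE 0.08). Of 8 regulators 1 was lower, the coactivator Ppargc1a at -0.25 (SE 0.08), and 1 higher, Foxo1 at 0.22 (SE 0.07, adjusted p = 0.0446 in edgeR), which was not called with library size alone (adjusted p = 0.183 in edgeR).

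Markers of other cell types in the hepatocyte sums were low. The 5 endothelial markers summed to 29.9 to 37.5 CPM in WT and 32.6 to 42.8 CPM in HNKO mice, and the 5 stellate markers to 37.1 to 87.4 CPM and 29.5 to 193 CPM. The 5 Kupffer markers summed to 4.47 to 8.84 CPM and 6.47 to 13.4 CPM, and the 5 CD45+ markers to 12.8 to 16.9 CPM and 14.1 to 18.0 CPM. The 6 cholangiocyte markers, of which 1 was at 0, summed to 13.5 to 18.7 CPM and 12.6 to 43.9 CPM. HNKO mouse 3 had the highest sums of the endothelial, Kupffer, CD45+ and cholangiocyte lists, and their part in its low Cps1, Ass1, Asl and Arg1 was not tested.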

How the data were processed

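snRNA-Seq (10x Genomics 3′ kit) of liver nuclei was deposited by the authors as estimated counts of UMIs per gene and nucleus, made with Cell Ranger 5.0.1 and alevin on GRCm38 with introns included. Of the nonzero values 10.1% were not whole (over 0.001 from a whole number). The deposited hashtag counts and the table of mouse, genotype and cluster of each nucleus were used as given, and a matrix of values corrected by the authors for depth was not used. The authors had removed nuclei negative for hashtags and nuclei with many genes (the most here was 5497). They kept nuclei called as single by hashtag, and no doublet caller was run here.

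UMIs were summed per mouse and cell type (at least 10 nuclei) or zonal part and rounded to whole numbers. Levels are plain CPM. Tests used edgeR 4.0.16 in R 4.3.3 (filterByExpr, TMM, quasi-likelihood, two-sided, Benjamini-Hochberg threshold 0.05), with genotype alone in hepatocytes and mouse as a block within mice, and were tested on simulated data. The SE is the absolute log2 fold change divided by the square root of F. Zonal scores used log2 ratios (pseudocount 1) on nuclei thinned to 1300 UMIs. Hepatocyte sums held 3524052 to 6634851 UMIs. The genes named are the 6 members, Nampt, 4 lists of neighbouring genes and the 3 genes most like each member. Members and lists were chosen with earlier results of these data known. DESeq2 1.42.0, other scaling, filters and nuclei were alternatives. Coordinates come from GENCODE vM21, whereas the authors used another release on the same build. The values of 1 gene of the amino acid breakdown list are not reported here.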

Additional observations from a re-analysis of the deposited data

Results flagged for a closer look

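For Cps1 the test of cell type and genotype in edgeR with mouse as a block passed between hepatocytes and endothelial nuclei, but 8 of 12 alternatives lost the call. The log2 value was -1.25 (SE 0.28, adjusted p = 0.00813), from 3 WT and 3 HNKO mice. With library size alone it was -1.01 (adjusted p = 0.108 in edgeR), without HNKO mouse 3 it was -1.06 (adjusted p = 0.338 in edgeR), and without the 5% of nuclei with the most UMIs it was -0.92 (adjusted p = 0.588 in edgeR). The call was also lost with DESeq2 (-1.14, adjusted p = 1.00), without the mouse block (-1.08, adjusted p = 0.916 in edgeR) and without WT mouse 1, WT mouse 3 or HNKO mouse 1 (adjusted p of 0.0639 to 0.444 in edgeR). Endothelial Cps1 was at a median of 25.2% of the hepatocyte level, and the hepatocyte markers in the same nuclei were at 29.9%.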

How the results depend on the processing

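Of 297 values of single members under the alternatives, 266 kept their direction and their side of the threshold. This count includes values that were not called in the main fit and stayed so. Of the called results, zonal Arg1 and Asl each lost the call under 1 of 16 alternatives and zonal Ass1 under 4 of 16. The interaction of cell type and genotype for Cps1 lost it under 8 of 12. Between genotypes, the count of 0 genes became 35 with no count filter and 21 with DESeq2, and ranged from 0 to 32 when a mouse was left out (32 without HNKO mouse 2). The fold of Cps1 then ranged from -0.78 to 0.13 and that of Ass1 from -0.82 to 0.41. Between zonal parts, 830 genes were called with DESeq2 and 147 without the mouse block, where no member was called, and Cps1 turned to -0.34 between the outermost of 10 parts (added after the data were seen, as was library size alone). For the interaction of part and genotype, 24 genes passed with no filter, 2 without the 5% of nuclei with most UMIs, 0 between the outermost of 10 parts and 1 to 5 with a mouse left out (2 without WT mouse 1, 2 without WT mouse 2, 5 without HNKO mouse 2). Values near 0 changed sign there, which were Ass1 (-0.07 by hashtag, -0.15 in the outermost parts, -0.13 to 0.12 with a mouse left out), Otc (0.03 without the 5% of nuclei with most UMIs, 0.03 with the score on all UMIs, -0.24 to 0.15 with a mouse left out) and Asl (0.01 without the 5% of nuclei with most UMIs). For the interaction of cell type and genotype, 2 genes passed with DESeq2, 7 without the 5% of nuclei with most UMIs, 0 without the mouse block (lowest adjusted p = 0.916 in edgeR, 591 genes at an unadjusted p under 0.05) and 5 to 32 with a mouse left out (7 without WT mouse 3, 32 without HNKO mouse 2, 5 without HNKO mouse 3), and Arg1 turned to 0.02 with library size alone and to 0.04 without the 5% of nuclei with most UMIs. The cause of these shifts was not tested. The hashtag alternative was not run for the interaction of cell type and genotype, since 3 mice kept under 10 endothelial nuclei (9, 9 and 4). No paired analysis was possible because the replicate numbers count pools of nuclei and not mice. The exception was pairing by mouse, which the tests within mice used as a block. The pool of each nucleus is not given in the sources used here, so that a difference between pools was not tested. Depth limits Nags, with 6 to 34 UMIs per mouse in hepatocytes, and every gene outside hepatocytes.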
